A study of Mus musculus with 191 samples.

Results

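The genes described here are 29 enzymes, regulators and carriers of cholesterol and fatty acid synthesis, measured in the lungs of female B6C3F1 mice. They were chosen by name, for their place in these pathways, through the array annotation, with 1 probe set per gene (the one of highest mean). All 29 were among the 13524 genes tested, of 18194 genes with a probe set of their own. The study exposed mice to 26 chemicals for 13 weeks and profiled each animal's lung RNA on 1 Affymetrix whole-genome mouse expression array at an age of 18 weeks. The 191 arrays comprise 133 exposed arrays in 34 groups of 3 to 5 animals and 58 control arrays in 14 sets. A level is the deposited value, on a scale taken as log2 and centred near 0 on every array, so 1 unit is a doubling.

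Inhaled exposures were naphthalene (NPTH) at 0.5, 3, 10, 20 and 30 ppm, methylene chloride (MECL) at 100, 500, 2000, 3000 and 4000 ppm, vanadium pentoxide (VANP) at 2 mg/m3, propylene glycol mono-t-butyl ether (PGBE) at 1200 ppm, ethylene oxide at 100 ppm, tetrafluoroethylene at 1250 ppm and tetrafluororethane (spelled so in the labels) at 50000 ppm. Gavage in corn oil was used for 1,2,3-trichloropropane (TCPN) at 60 mg/kg, iodoform (IODO) at 93 mg/kg, coumarin (COUM) at 200 mg/kg, 1,2-dibromoethane (DBET) at 62 mg/kg, benzene at 100 mg/kg, 1,4-dichlorobenzene at 600 mg/kg, 2,3-benzofuran at 240 mg/kg and trichlorofluoromethane at 3925 mg/kg. Gavage in distilled water was used for N-methylolacrylamide at 50 mg/kg and 2-chloromethylpyridine hydrochloride (CMPH) at 250 mg/kg. Dietary exposures were 2,2-bis(bromomethyl)-1,3-propanediol (BBMP) at 1250 ppm, 1,5-naphthalenediamine and N-(1-naphthyl)ethylenediamine dihydrochloride at 2000 ppm each, pentachloronitrobenzene at 8187 ppm, diazinon at 200 ppm, malathion at 14800 ppm by protocol and 16000 ppm by array title, 4-nitroanthranilic acid at 10000 ppm, 1-amino-2,4-dibromoanthraquinone at 20000 ppm and tris(2,3-dibromopropyl)phosphate at 1000 ppm. Controls were mice of the same strain, sex and age that received air, corn oil, distilled water or plain rodent chow. Each exposed group was set against all control sets of its vehicle on the same of 4 array batches, since the labels do not name a chemical's set. Among control sets only the air set ACO3 has its dose in mg/m3, a unit otherwise used for vanadium pentoxide alone.

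Cells build cholesterol from acetyl-CoA through mevalonate, farnesyl diphosphate, squalene and lanosterol, and build fatty acids from the same acetyl-CoA. Both routes are switched on by the SREBP transcription factors, which INSIG proteins hold in the endoplasmic reticulum while sterols are plentiful. In lung, alveolar type 2 cells run both routes to supply the lipids of surfactant, and fat cells near the airways and heart run the fatty acid route strongly.

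The labels gave lung as the tissue, and the lung markers fitted it. The surfactant gene Sftpc lay between 6.37 and 7.45 over the control arrays, and the club cell gene Scgb1a1 between 6.33 and 7.19. RNA integrity numbers ran from 6.1 to 9.6, with 2 arrays under 7 and 32 arrays without a number. A single air control array, replicate 4 of the set ACO3, stood apart. Its 11 measured adipose markers averaged 2.11, against -0.33 to 0.76 on the other air arrays, and its Elovl6 level was 2.14, against -0.62 to 0.42. Results that rest on this array are given with and without it. The naphthalene, methylene chloride, vanadium pentoxide, PGBE and ethylene oxide groups share the same 14 air control arrays, so their comparisons are not independent of each other.

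A member was called changed where limma's adjusted p was under 0.05 (Benjamini-Hochberg over all genes tested) in the same direction against every matching control set, and the adjusted p given is the highest over those sets. The log2 difference is exposed minus the equal-weight mean of the sets. By this rule 32 of 986 pairs of member and exposed group were called, with 29 rises and 3 falls, spread over 9 groups. That was 3.25% of member pairs, against 2.58% of the pairs of all tested genes with the exposed groups. Of the members, 19 were called at least once and 10 never. The falls included 2 of Elovl6, which ended without the adipose-rich air array. In the other 25 groups no member was called, where 0.905% of all gene tests were called. There limma gave 52 of 725 member tests an unadjusted p under 0.05, and log2 differences ran from -0.55 to 0.53. By group, 0 to 8 of 29 members and 68 to 3824 of 13524 genes had such a p. Between pairs of control sets that share vehicle and batch, 0 of 145 member tests were called by limma and 2 had an unadjusted p under 0.05. By pair, 282 to 757 of 13524 genes had such a p.

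**Figure D1:**
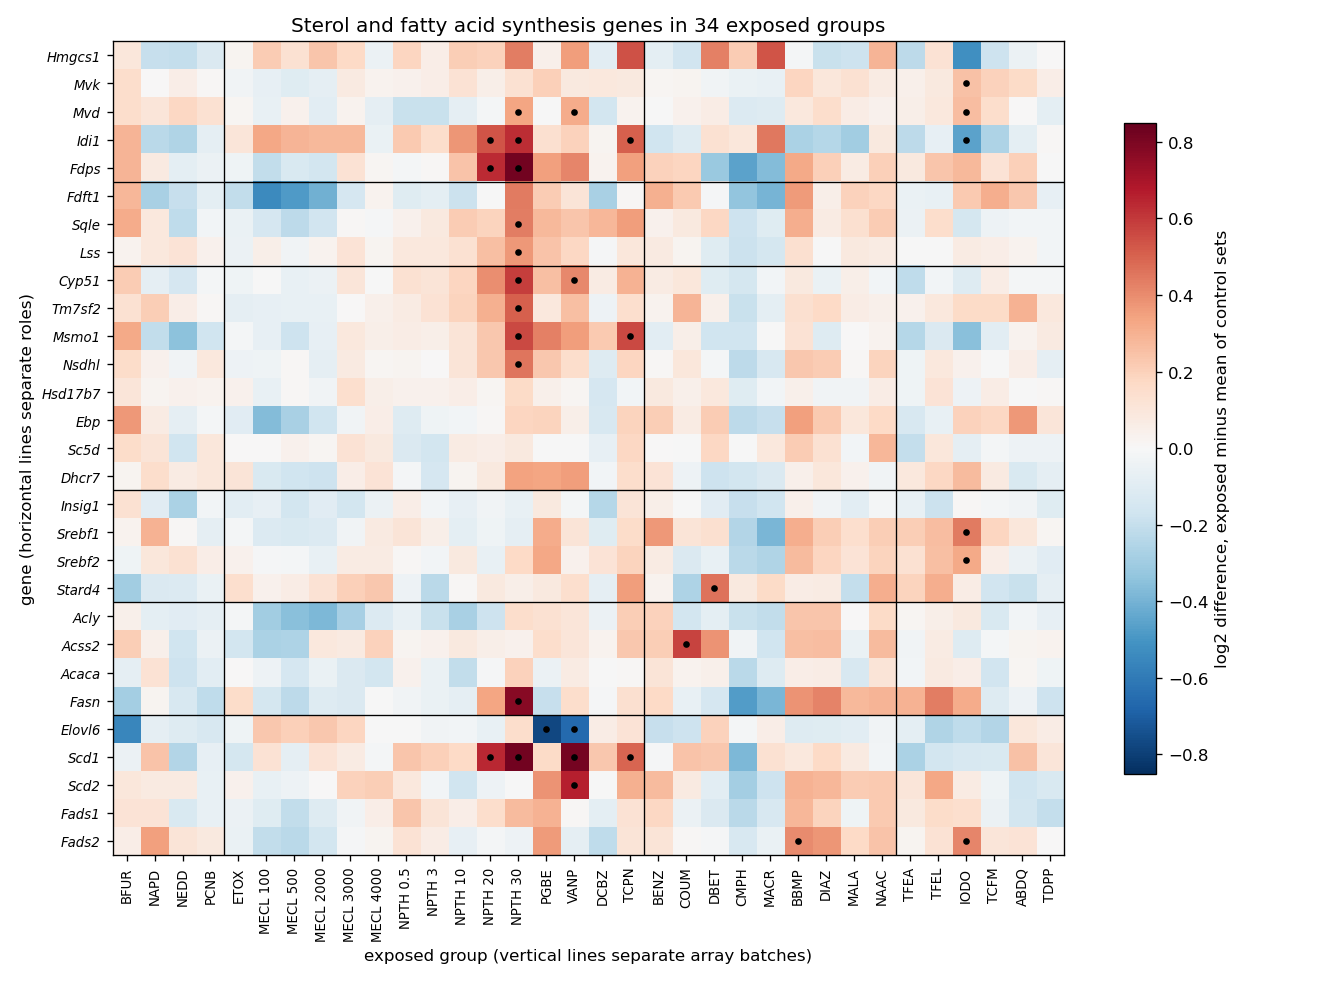
Colour gives the log2 difference of each of the 29 genes (down the page, by role) in each of the 34 exposed groups (across, by array batch) from the mean of its control sets, and a dot marks a called gene. The 30 ppm naphthalene column holds 11 dots, and most of the other columns hold none.

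Of the 34 groups, inhaled naphthalene at 30 ppm had the most members called. There, 11 of 29 members rose and 0 fell, where 2.05% of all genes were called and 1.58% rose. The median member difference was 0.27, against -0.05 over all genes, and 25 of 29 members were above the air controls. Of these 11, 9 belong to the sterol route: 3 of 5 mevalonate enzymes, 2 of 3 enzymes of the squalene and lanosterol steps, and 4 of 8 enzymes after lanosterol. The fatty acid synthase Fasn and the desaturase Scd1 were the other two. None of the 4 regulators and carriers (Insig1, Srebf1, Srebf2 and the cholesterol carrier Stard4) was called, and their differences lay between -0.08 and 0.17. Without the adipose-rich air array, 9 of 29 members rose and 0 fell, where 1.95% of all genes were called. The member median was then 0.32.

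Fdps, which makes farnesyl diphosphate, had levels of 2.67, 2.73, 2.48 and 2.63 at 30 ppm, against 1.52 to 2.05 (median 1.87) on the 14 air control arrays. Every exposed array stood above every control array. The log2 difference was 0.82 (SE 0.12, 1.77-fold, adjusted p = 5.34e-05). At 20 ppm its levels were 2.21, 2.37, 2.76 and 2.42, also clear of all controls. That difference was 0.64 (SE 0.12, adjusted p = 0.00578), and leaving out the 20 ppm array at 2.76 gave 0.53 and an adjusted p of 0.0908.

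Scd1, the desaturase that puts the first double bond into stearate, read 5.97, 5.96, 6.12 and 5.92 at 30 ppm and 5.92, 5.67, 5.82 and 5.83 at 20 ppm, against 4.86 to 5.66 (median 5.18) in air. Neither group overlapped the controls, although the lowest 20 ppm array lay just above the adipose-rich air array at 5.66. The differences were 0.82 at 30 ppm (SE 0.12, 1.77-fold, adjusted p = 3.77e-05) and 0.64 at 20 ppm (SE 0.12, adjusted p = 0.00394; 0.0541 with the least favourable array left out). Idi1, which isomerises isopentenyl diphosphate, read 1.51, 1.61, 1.36 and 1.45 at 30 ppm and 1.26, 1.37, 1.44 and 1.51 at 20 ppm, against 0.48 to 1.30 (median 0.82) in air. The 30 ppm arrays cleared all controls, while the lowest 20 ppm array fell under the highest control. Its differences were 0.62 at 30 ppm (SE 0.13, adjusted p = 0.00643) and 0.54 at 20 ppm (SE 0.13, adjusted p = 0.0311), and the 20 ppm call ended without any of 10 single arrays (adjusted p up to 0.115).

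Cyp51, the lanosterol demethylase, had 1.34, 1.28, 0.93 and 1.03 at 30 ppm, against 0.33 to 0.74 (median 0.52) in air. The groups did not overlap, and the difference was 0.59 (SE 0.10, 1.50-fold, adjusted p = 0.000645). Mvd, which decarboxylates mevalonate diphosphate, had 0.79, 0.77, 0.59 and 0.63, against 0.14 to 0.54 (median 0.39) in air. It too stood clear of the controls, with a smaller difference of 0.33 (SE 0.06, adjusted p = 0.00319; 0.0725 with the least favourable array left out).

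Fasn rose by 0.77 (SE 0.14, adjusted p = 0.00493) at 30 ppm, with exposed levels of 4.21 to 4.43 and control levels of 2.91 to 4.45. The overlap came from the adipose-rich air array, the highest control at 4.45. Without that array the difference was 0.89 (adjusted p = 0.00184). The remaining called sterol enzymes were Msmo1 (methylsterol oxidase), at 0.56 (adjusted p = 0.0431), Tm7sf2 (a sterol reductase), at 0.51 (adjusted p = 0.000389), and Nsdhl (a sterol dehydrogenase), at 0.45 (adjusted p = 0.00227). Sqle (squalene epoxidase) rose by 0.43 (adjusted p = 0.0466) and Lss (lanosterol synthase) by 0.37 (adjusted p = 0.000705). Msmo1, Tm7sf2, Nsdhl, Sqle and Lss did not overlap the controls. As for every called gene described here, the ranges come from the arrays that gave the call and are no separate support. Sqle and Msmo1 lay near the threshold: leaving out single arrays gave adjusted p values up to 0.198 and 0.187.

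At 20 ppm only Scd1, Fdps and Idi1 were called, 3 of 29 where 2.11% of all genes were. Without the adipose-rich air array this was 2 of 29, where 2.01% of all genes were called. At 0.5, 3 and 10 ppm limma called none, and 1 member in each of these groups had an unadjusted p under 0.05. By group, 344 to 590 of 13524 genes had such a p.

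**Figure D2:**
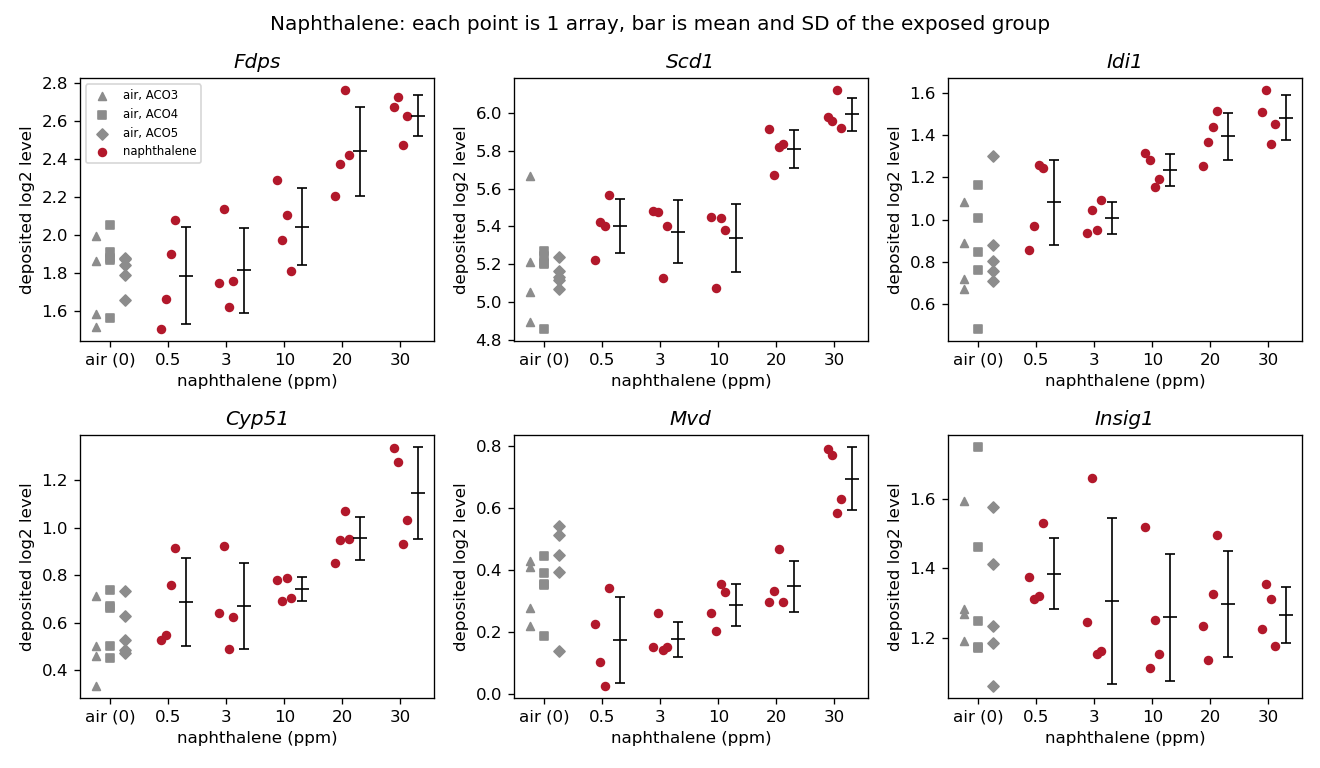
Deposited log2 level (vertical axis) on each array for 6 genes, with the 3 sets of air controls at the left as grey symbols and naphthalene groups by rising concentration in ppm; the bar is the mean and SD of the 4 exposed arrays. Fdps, Scd1, Idi1, Cyp51 and Mvd stand above all air arrays at 30 ppm, and Insig1 does not.

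Over the 20 naphthalene arrays alone, with no controls in the fit, 16 of 29 members rose with concentration and 0 fell. Of all genes, 9.08% rose and 31.7% fell in that fit. The fitted log2 change across the range had a median of 0.25 over the members and of -0.07 over all genes. All of the squalene and lanosterol enzymes rose, with 4 of 5 mevalonate enzymes, 6 of 8 later sterol enzymes, Fasn, Acly and Scd1. Fdps had the largest change at 0.90 (SE 0.11, adjusted p = 3.89e-06), then Fasn at 0.83 (SE 0.09, adjusted p = 1.28e-06) and Scd1 at 0.67 (SE 0.09, adjusted p = 1.48e-05). Fdft1 (squalene synthase) at 0.50 and Dhcr7, the reductase that finishes cholesterol, at 0.40 passed in the trend although neither was called against controls at 30 ppm. Mvd, Cyp51 and Msmo1 changed by 0.49, 0.49 and 0.48, Idi1 by 0.47, Nsdhl by 0.44, Tm7sf2 by 0.41 and Sqle by 0.35. The other four, Lss, Hmgcs1, Ebp and Acly, rose by 0.23 to 0.29. Mvk, Hsd17b7 and Sc5d were the sterol enzymes that did not pass, at 0.07, 0.10 and 0.23.

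The shapes of the series differed. From 0.5 to 30 ppm, Fdps differed from the mean of the air sets by -0.02, 0.01, 0.24, 0.64 and 0.82. Scd1 ran 0.23, 0.20, 0.17, 0.64 and 0.82 over the same concentrations, flat to 10 ppm. Mvd ran -0.19, -0.19, -0.08, -0.01 and 0.33, starting below the controls. Each of the 16 sterol enzymes had its highest group mean at 30 ppm.

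Other genes of the pathways were taken from lists of names. Of 15 further sterol synthesis, uptake and sensing genes, 9 were tested: at 30 ppm Pmvk (phosphomevalonate kinase) rose by 1.17 and Npc2, a lysosomal cholesterol carrier, by 0.55, and none fell. Pmvk also rose by 0.66 at 20 ppm. Of 13 tested genes for further fatty acid and triglyceride synthesis, only the elongase Elovl1 was called at 30 ppm, rising by 0.61. Of 9 tested genes of sterol efflux and the sterol-sensing LXR receptors, 1 was called, the exporter Abcg1, which fell by 0.61 at 30 ppm and by 0.51 at 20 ppm. In the trend, 4 of these 9 fell and 1 rose, the largest fall being that of the exporter Abca1 at -0.60. The fatty acid list had 10 rises and 2 falls in the trend, led by Elovl1 at 0.68. The sterol list had 2 rises, Pmvk at 1.24 and Npc2 at 0.69, and 4 falls.

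Markers of several cell types moved in this series. At 30 ppm none of 11 measured alveolar type 2 cell markers was called, but all were above the controls, with a median of 0.22. Their mean level per array was 5.31 to 5.50 at 30 ppm, against 4.83 to 5.29 in air, with no overlap. In the trend 10 of 11 rose, with a median of 0.34. The 6 ciliated cell markers had medians of 0.41, 0.28 and 0.36 at 10, 20 and 30 ppm. Of these, Foxj1 was called higher at 10 and 20 ppm, by 0.71 and 0.61, and none was called at 30 ppm. The club cell list had 2 of 6 genes fall at 30 ppm, Gabrp by 1.12 and Cyp2f2 by 0.44, and the adipose list had 1 rise, Cidea at 0.78. The 9 tested adipose genes had a median of 0.18, with 7 above the controls. Without the adipose-rich air array that median was 0.44, with Cidea at 1.01 and the type 2 median at 0.19. RNA quality also ran with concentration: integrity numbers were 8.8 to 9.1 at 0.5 ppm and 9.3 to 9.5 at 30 ppm, and the 3-prime minus 5-prime actin signal averaged 0.76, 0.84, 0.50, 0.55 and 0.55 from 0.5 to 30 ppm. Clock genes moved at 20 ppm, where 5 of 12 rose and 2 fell, Dbp by 2.01, and in the trend, with 3 rises and 3 falls; at 30 ppm 1 fell. The part of cell makeup, clock genes or RNA quality in the rises was not tested. In whole lung, fewer cells of a type and less RNA per cell cannot be told apart.

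**Figure D3:**
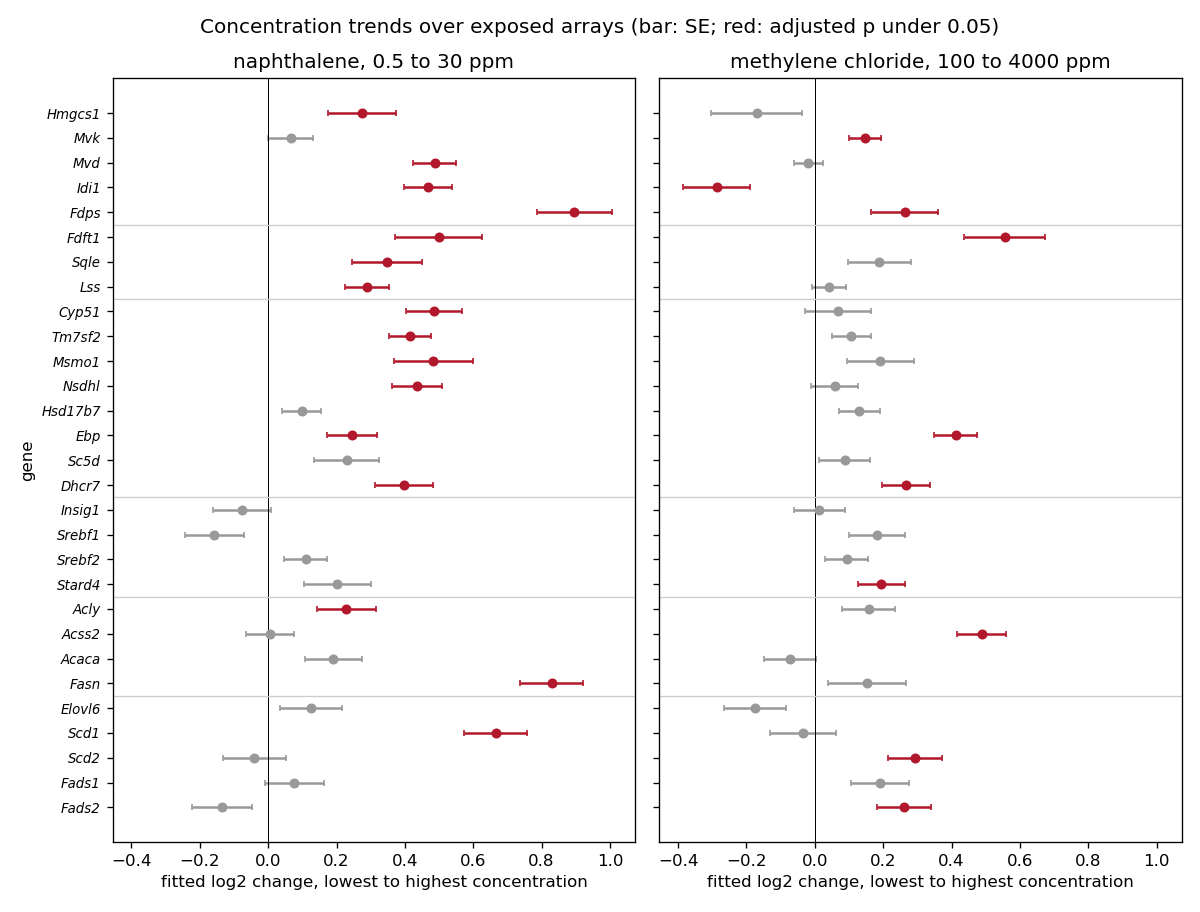
Fitted log2 change over the whole concentration range (horizontal axis, with SE) for each of the 29 genes over exposed arrays only, naphthalene at the left and methylene chloride at the right, red where adjusted p was under 0.05. For naphthalene 16 genes are red and all lie right of 0, and for methylene chloride 10 are red, with Idi1 at -0.29.

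Methylene chloride gave another pattern. Over its 21 exposed arrays, 9 of 29 members rose and 1 fell with concentration, where 27.2% of all genes rose and 15.1% fell, so the rising share of the members was near that of all genes. The median change was 0.15, against 0.04 over all genes. Fdft1 rose by 0.56 (SE 0.12, adjusted p = 0.00109), Acss2, which makes acetyl-CoA from acetate, by 0.49 (SE 0.07, adjusted p = 6.52e-05), and Ebp, the sterol isomerase, by 0.41 (SE 0.06, adjusted p = 9.60e-05). Scd2 rose by 0.29, Dhcr7 by 0.27, Fdps and Fads2 by 0.26 each, Stard4 by 0.19 and Mvk by 0.15. Idi1 fell by 0.29 (SE 0.10, adjusted p = 0.0233). In the other pathway lists 4 of 9 sterol genes rose, 7 of 13 fatty acid genes and 4 of 9 efflux genes, and none fell. The largest rises were those of Elovl1 at 0.63, Scarb1 at 0.44, Dgat2, which completes triglycerides, at 0.43 and Npc2 at 0.35.

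These rises began below the air controls. Fdft1 differed from the air mean by -0.54, -0.48, -0.41, -0.15 and 0.03 from 100 to 4000 ppm, and Ebp by -0.37, -0.28, -0.17, -0.03 and 0.06. Idi1 was 0.33, 0.29, 0.27 and 0.28 above it from 100 to 3000 ppm and -0.06 at 4000 ppm. In none of the 5 groups did limma call a member against controls, and 7 of 145 tests had an unadjusted p under 0.05. By group, 414 to 2002 of 13524 genes had such a p. With the air arrays added to the fit as 0 ppm, only 1 member had a trend. The share of all genes with a trend also fell, from 42.2% to 5.35%. Clock genes moved with this series: 8 of 12 rose and 3 fell, Dbp by 4.16 log2 units. Their mean level per array was 1.32 to 1.53 at 4000 ppm and 0.58 to 0.67 at 100 ppm, against 0.54 to 0.97 in air, with 7 rises and 2 falls at both 3000 and 4000 ppm. Type 2 cell markers had medians of -0.21, -0.22, -0.23, -0.04 and -0.06 from 100 to 4000 ppm, and in the trend 4 of 11 rose and 1 fell. RNA integrity was 7.3 to 8.9 at 100 ppm and 9.1 to 9.5 at the other concentrations. The part of clock genes, type 2 cells or RNA quality in the members' trend was not tested.

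After vanadium pentoxide at 2 mg/m3, the stearoyl-CoA desaturases Scd1 and Scd2 and the sterol enzymes Cyp51 and Mvd rose: 4 of 29 members rose and 1 fell, where 4.33% of all genes were called. Scd1 read 5.84, 5.98, 6.07 and 6.03, against 4.86 to 5.66 in air. Its difference was 0.81 (SE 0.12, 1.75-fold, adjusted p = 4.56e-05). Scd2, the second stearoyl-CoA desaturase, read 5.20 to 5.41, against 4.46 to 4.99, and differed by 0.66 (SE 0.11, adjusted p = 0.000500). Neither gene overlapped the controls. Scd2 was called in no other group, and in the 30 ppm naphthalene group, where Scd1 rose as far, it lay at -0.00.

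Cyp51 had 0.87, 0.85, 1.24 and 0.91 after vanadium pentoxide, against 0.33 to 0.74 in air, a difference of 0.41 (SE 0.10, adjusted p = 0.0320). Mvd had 0.54, 0.73, 0.81 and 0.65, against 0.14 to 0.54, a difference of 0.32 (SE 0.06, adjusted p = 0.00367). Cyp51 stood clear of the controls, whereas the lowest Mvd array lay just under the highest control. Cyp51 lost its call without single arrays, the adjusted p reaching 0.216, and Mvd without 1 control array (0.0595).

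Elovl6, which lengthens palmitate to stearate, was called lower after vanadium pentoxide and after propylene glycol mono-t-butyl ether. Its levels were -0.62, -0.37, -0.68 and -0.53 in VANP lungs and -0.75, -0.72, -0.61 and -0.57 in PGBE lungs. The air controls read -0.62, -0.55, -0.37 and 2.14 in ACO3, -0.17 to 0.42 in ACO4 and -0.06 to 0.19 in ACO5. The other 3 ACO3 arrays thus lay among or just above the exposed arrays, and the array at 2.14 was the adipose-rich array. The differences were -0.66 for VANP (SE 0.14, adjusted p = 0.00515) and -0.77 for PGBE (SE 0.14, adjusted p = 0.00464). Without that array they were -0.44 and -0.55, with adjusted p values of 0.963 and 0.701 against ACO3, so both calls ended. For PGBE this was the 1 called member, where 0.673% of all genes were called. Limma gave 12 of 29 PGBE members an unadjusted p under 0.05, 11 of them higher, where 1506 of 13524 genes had one. Without the adipose-rich array 25 of 29 were above the controls and none was called. Their median was 0.20, against 0.07 over all genes. Against the mean of the control sets alone 9 rose and 1 fell, where 12.9% of all genes were called.

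**Figure D4:**
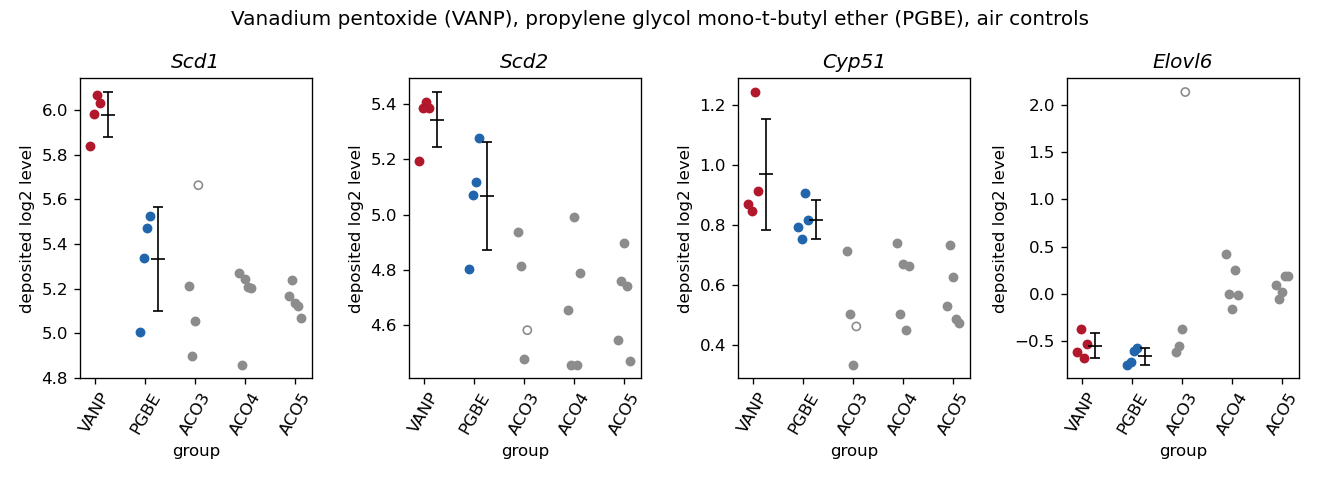
Deposited log2 level (vertical axis) on each array for 4 genes after vanadium pentoxide (VANP), after propylene glycol mono-t-butyl ether (PGBE) and in the 3 air control sets, with mean and SD beside the exposed groups; the open circle is ACO3 replicate 4. Scd1 and Scd2 in VANP lie above all air arrays, and for Elovl6 the open circle at 2.14 stands apart while the other ACO3 arrays lie beside the exposed groups.

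Adipose markers ran lower with Elovl6. All 9 tested adipose genes were below the controls in both groups, with medians of -0.62 in VANP and -0.68 in PGBE, and -0.37 in each without the adipose-rich array. Cidea, a lipid droplet protein, fell by 0.79 and 0.88, calls that ended without that array. Type 2 cell and macrophage markers were higher after vanadium pentoxide. Of 11 type 2 markers 6 rose, the median difference being 0.46, and their mean level was 5.56 to 5.76 in VANP, against 4.83 to 5.29 in air. Of 8 macrophage markers 4 rose, with mean levels of 2.20 to 2.36, against 1.54 to 2.16. The part of these cells in the members' changes was not tested.

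Further lipid genes rose after vanadium pentoxide: Npc1, which moves cholesterol out of lysosomes, by 1.02, and Elovl1 by 0.92. Ch25h, which makes an oxysterol, rose by 1.32. Thrsp, a lipogenic protein of fat, fell by 1.37, and this call ended without the adipose-rich array (-1.02, adjusted p = 0.890).

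1,2,3-Trichloropropane left nearly all members above their corn oil controls, 28 of 29, with a median of 0.18 against 0.07 over all genes. In all 3 were called, each of them higher, where 9.37% of all genes were, a share near the members' own. Idi1 read 1.20, 1.58, 1.34 and 1.33, against 0.51 to 1.27 (median 0.86) on 10 corn oil arrays, and differed by 0.51 (SE 0.13, adjusted p = 0.0258). Scd1 read 5.41, 5.43, 5.56 and 5.32, against 4.71 to 5.30, and differed by 0.49 (SE 0.12, adjusted p = 0.0179). Scd1 did not overlap the controls, and Idi1 did by 1 array. Msmo1 differed by 0.56 (SE 0.14, adjusted p = 0.0294), with 1.52 to 2.02 in exposed lungs and a wide 0.47 to 1.92 in controls. All 3 calls were lost when values were quantile normalised within the batch, with adjusted p of 0.151 to 0.189, and when the arrays of the contrast were fitted alone. Mbtps2, a protease that releases SREBP, rose by 0.43, the fatty acid activating enzyme Acsl3 by 0.45 and Me1 by 0.43. All 11 type 2 cell markers were above the controls (median 0.20, none called). Other marker lists were higher too, with medians of 0.35 for ciliated cells (2 rises), 0.25 for macrophages (1 rise), 0.23 for type 1 cells (none called) and 0.21 for club cells (1 rise). The adipose median was -0.06. RNA integrity was 9.4 to 9.6 in exposed lungs against 6.7 to 8.8 in controls. The part of these cells or of RNA quality in the rises was not tested.

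After iodoform the called mevalonate enzymes lay on both sides of the controls, in calls that rested on single arrays (see the next paragraph). In all 5 members rose and 1 fell, where 27.4% of all genes were called, a share above the members' own. Idi1 had 0.24, -0.05, 0.62 and 0.41, against 0.89, 0.48, 1.03 and 0.64 on the 4 corn oil arrays, a fall of 0.46 (SE 0.16, adjusted p = 0.0265). Mvd had 0.53, 0.82, 0.37 and 0.56, against 0.20, 0.48, 0.12 and 0.41, a rise of 0.27 (SE 0.07, adjusted p = 0.00928). The ranges overlapped for both genes. Both SREBP genes rose, Srebf1 by 0.44 (adjusted p = 0.0203) and Srebf2 by 0.32 (adjusted p = 0.0176), with Fads2, the first desaturase of polyunsaturated fatty acids, by 0.42 (adjusted p = 0.0138) and Mvk (mevalonate kinase) by 0.25 (adjusted p = 0.0214). Hmgcs1, which makes HMG-CoA at the head of the mevalonate route, had its lowest value of all groups here, -0.52, and was not called.

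Each of these calls ended when corn oil array 1, corn oil array 3 or iodoform array 2 was left out. In each case 0 of 29 members were called, with adjusted p up to 0.422. None was called when the arrays of the contrast were fitted alone. The calls over all genes were lost as well. From 3708 they fell to 7, 9 and 2 without these arrays in turn, and to 0 in the fit of the contrast alone. The exposed array left out was the highest of its group for Mvd and the lowest for Idi1. Of other pathway genes, the lipoprotein receptor Scarb1 rose by 0.50 and the citrate carrier Slc25a1 by 0.44. Ggps1, which makes geranylgeranyl diphosphate, fell by 0.52 and Acsl3 by 0.48. The 3-prime minus 5-prime actin signal was 0.35 in iodoform lungs and 0.69 in controls, with no overlap, and its part in these changes was not tested.

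Single members were called in the 3 remaining groups. Acss2 after coumarin had 2.00, 1.76, 1.60 and 1.35, against 0.68 to 1.33 (median 1.19) on 8 corn oil arrays, with 5.69% of all genes called. The groups did not overlap, the difference was 0.58 (SE 0.11, 1.49-fold, adjusted p = 0.00619), and the call held with each array left out but not when the arrays of the contrast were fitted alone (adjusted p = 0.425). Fads2 after 2,2-bis(bromomethyl)-1,3-propanediol had 0.97, 0.91, 1.04 and 1.27, against 0.73, 0.77, 0.50 and 0.58 on chow, with 10.8% of all genes called. Its difference was 0.40 (SE 0.12, adjusted p = 0.0296), which quantile normalisation brought to 0.26 (adjusted p = 0.322). In the same lungs the 3-prime minus 5-prime actin signal was 0.29 to 0.36, against 0.46 to 0.62 on chow, with no overlap, and 5 of 12 clock genes rose; their part was not tested. Stard4 after 1,2-dibromoethane had 1.50, 1.24, 1.03 and 1.12, against 0.47 to 1.17 on corn oil, with 2.67% of all genes called. The difference of 0.46 (SE 0.10, adjusted p = 0.0495) sat at the threshold, and the mean of its 3 probe sets gave 0.18 (adjusted p = 0.379). Club cell markers were higher in the same dibromoethane lungs, 5 of 6 rising, with mean levels of 5.76 to 6.31 against 4.46 to 5.47, and their part was not tested.

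Of other pathway genes, Slc25a1 rose by 0.54 and Scarb1 by 0.49 after BBMP, where the efflux list had 4 rises of 9 and 0 falls, led by Mylip, which marks lipoprotein receptors for destruction, at 0.60 and by Apoe at 0.47. Scarb1 fell by 0.49 after coumarin, and no gene of the 3 other pathway lists was called after 1,2-dibromoethane.

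The 2 dietary naphthalene amines could be compared at the same level of 2000 ppm. Between 1,5-naphthalenediamine and N-(1-naphthyl)ethylenediamine dihydrochloride limma called 0 of 29 members, where 1.54% of all genes were called. An unadjusted p under 0.05 was given to 3 members and to 1122 of 13524 genes. Member differences, diamine minus ethylenediamine compound, ran from -0.08 to 0.49 with 3 arrays in each group. The largest was that of Scd1, 0.49 (SE 0.17, 95% interval 0.15 to 0.82, adjusted p = 0.163). Of other pathway genes the malic enzyme Me1, which makes NADPH, was higher by 0.75.

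Some groups without a call lay to one side. After 2-chloromethylpyridine hydrochloride, 26 of 29 members were below the distilled water controls, with a median of -0.18 against -0.03 over all genes. Limma called none, and 8 members had an unadjusted p under 0.05, none of them higher. Of all genes, 965 of 13524 had such a p, in either direction. Fdps at -0.46, Fasn at -0.48 and Scd1 at -0.38 had their lowest values of the 34 groups there. All 11 type 2 cell markers were lower in these lungs as well, with a median of -0.26, and their part was not tested.

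The members' whole ranges over the 34 groups show how narrow most changes were. Among mevalonate enzymes, Hmgcs1 spanned -0.52 to 0.54 and Mvk -0.11 to 0.25, the first wide without a call and the second narrow. Mvd spanned -0.19 to 0.33, Idi1 -0.46 to 0.62 and Fdps -0.46 to 0.82. Fdft1 spanned -0.54 to 0.44, Sqle -0.22 to 0.43 and Lss -0.18 to 0.37. These 3 enzymes peaked in the same group, 30 ppm naphthalene, with Mvd, Idi1 and Fdps.

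Of the later sterol enzymes, Cyp51 spanned -0.22 to 0.59, Tm7sf2 -0.19 to 0.51, Msmo1 -0.35 to 0.56 and Nsdhl -0.22 to 0.45. Hsd17b7, a sterol ketoreductase, spanned -0.14 to 0.16, Ebp -0.37 to 0.37, Sc5d, a sterol desaturase, -0.21 to 0.28, and Dhcr7 -0.18 to 0.35. None of these last 4 was called in any group. Insig1, which holds SREBP back, was the flattest regulator, from -0.27 to 0.13, and above its controls in 7 of 34 groups. Srebf1 spanned -0.39 to 0.44, Srebf2 -0.26 to 0.33 and Stard4 -0.30 to 0.46.

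On the fatty acid side, Acly, which cleaves citrate to acetyl-CoA, spanned -0.39 to 0.24 and Acaca, which makes malonyl-CoA, -0.23 to 0.19, both without a call. Acss2 spanned -0.27 to 0.58 and Fasn -0.48 to 0.77. Elovl6 spanned -0.77 to 0.23 and was the one member with calls only downward, calls that ended without the adipose-rich air array. Scd1 spanned -0.38 to 0.82 and Scd2 -0.29 to 0.66. The polyunsaturated desaturases Fads1 and Fads2 spanned -0.23 to 0.30 and -0.23 to 0.42.

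Untreated variation showed which members travel together. Over the 58 control arrays, with each set's mean removed, the 120 pairs of sterol enzymes had a median Pearson's r of 0.46, and 51 pairs exceeded 0.5. The 36 pairs of the 9 fatty acid enzymes had a median of 0.54, and the 144 pairs between the routes 0.36. Without the adipose-rich air array, over 57 arrays, the medians were 0.47 for sterol pairs, 0.64 for fatty acid pairs and 0.51 between the routes, so the last moved most with that array. The arrays share normalisation and whole-lung composition, and these values are given as a description. The pairs of highest r were Hmgcs1 with Idi1 (0.90), Cyp51 with Msmo1 (0.89) and Acly with Fasn (0.89), which were 0.91, 0.89 and 0.85 without that array. Hmgcs1, Idi1, Sc5d and Stard4, picked out after their values were seen, had r of 0.68 to 0.90 among themselves (0.67 to 0.91 without that array). Hmgcs1 and Idi1 had r of -0.42 to -0.04 with the other mevalonate enzymes Mvk, Mvd and Fdps (-0.43 to -0.04 without it), though all 5 act in 1 chain. Elovl6 had a median r of -0.17 with the other members and its highest r with Acaca (0.66), a value carried by the adipose-rich array: without it that r was -0.05, the median -0.26, and no member exceeded 0.19. Nsdhl, Scd2 and Fads1 had the most neighbours over 0.5, with 20, 20 and 19 of 28 (21, 23 and 21 without that array, when Acly had 21 too).

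**Figure D5:**
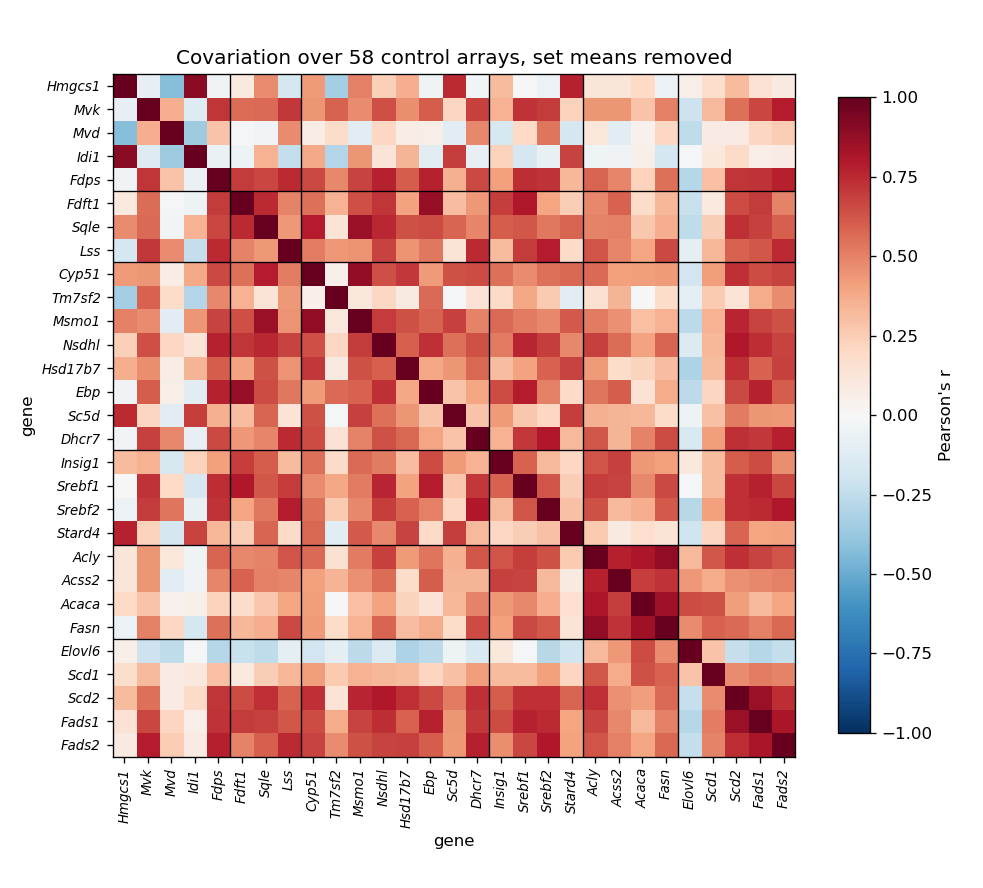
Pearson's r between each pair of the 29 genes over 58 control arrays after removing each control set's mean, with genes on both axes in order of role and lines between roles. Hmgcs1 and Idi1 form a red pair of 0.90 that is pale or blue against Mvk, Mvd and Fdps, and Elovl6 is pale or blue against most genes.

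Promoters were available from RefSeq (build GRCm38.p6) for 22 of the 29 members, as 300 bases from 250 before to 50 after a gene start. The 6 shown belong to the members with the most calls among these. Of them, 4 (Idi1, Mvd, Cyp51 and Msmo1) were called higher at 30 ppm naphthalene, and the fatty acid genes Elovl6 and Fads2 were not called there. Capitals mark the CCAAT box, the site of the SREBP partner NF-Y, on either strand.
Idi1 (chr13:8885356-8885655, plus strand): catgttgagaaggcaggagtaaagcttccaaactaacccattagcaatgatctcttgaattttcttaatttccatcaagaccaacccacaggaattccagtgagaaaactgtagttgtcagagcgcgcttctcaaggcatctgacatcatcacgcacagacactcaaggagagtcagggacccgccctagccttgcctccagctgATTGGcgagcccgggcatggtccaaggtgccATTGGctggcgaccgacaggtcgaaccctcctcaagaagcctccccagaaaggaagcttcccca
Mvd (chr8:122443373-122443672, minus strand): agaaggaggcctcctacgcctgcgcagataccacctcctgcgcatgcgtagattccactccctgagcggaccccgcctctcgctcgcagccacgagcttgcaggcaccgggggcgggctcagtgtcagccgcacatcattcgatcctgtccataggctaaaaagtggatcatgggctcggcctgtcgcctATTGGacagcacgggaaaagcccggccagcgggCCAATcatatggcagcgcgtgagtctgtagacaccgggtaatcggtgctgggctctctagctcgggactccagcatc
Cyp51 (chr5:4104648-4104947, minus strand): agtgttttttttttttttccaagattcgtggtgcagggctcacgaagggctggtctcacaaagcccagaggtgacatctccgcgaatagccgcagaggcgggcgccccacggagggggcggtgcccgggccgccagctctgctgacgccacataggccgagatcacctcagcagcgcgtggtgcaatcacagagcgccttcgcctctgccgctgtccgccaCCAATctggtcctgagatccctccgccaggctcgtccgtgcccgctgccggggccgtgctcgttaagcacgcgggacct
Msmo1 (chr8:64733529-64733828, minus strand): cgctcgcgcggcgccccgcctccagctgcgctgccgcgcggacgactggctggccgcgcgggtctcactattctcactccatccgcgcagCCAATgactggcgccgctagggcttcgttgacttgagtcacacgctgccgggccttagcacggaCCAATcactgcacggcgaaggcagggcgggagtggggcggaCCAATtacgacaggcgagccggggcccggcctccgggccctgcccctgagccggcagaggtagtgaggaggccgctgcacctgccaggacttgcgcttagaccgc
Elovl6 (chr3:129532136-129532435, plus strand): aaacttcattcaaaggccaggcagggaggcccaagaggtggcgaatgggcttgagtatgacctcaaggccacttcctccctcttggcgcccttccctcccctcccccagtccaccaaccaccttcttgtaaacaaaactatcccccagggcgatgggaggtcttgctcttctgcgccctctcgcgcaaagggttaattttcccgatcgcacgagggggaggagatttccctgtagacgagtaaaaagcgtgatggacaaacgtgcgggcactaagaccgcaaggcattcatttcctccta
Fads2 (chr19:10101454-10101753, minus strand): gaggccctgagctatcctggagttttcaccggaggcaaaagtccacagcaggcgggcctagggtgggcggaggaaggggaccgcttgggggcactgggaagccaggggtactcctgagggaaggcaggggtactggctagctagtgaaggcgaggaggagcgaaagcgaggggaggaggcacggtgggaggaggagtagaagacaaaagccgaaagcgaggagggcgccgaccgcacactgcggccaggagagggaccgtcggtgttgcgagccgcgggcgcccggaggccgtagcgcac

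Idi1 and Mvd each hold 2 CCAAT boxes, Cyp51 holds 1 and Msmo1 holds 3, while Elovl6 and Fads2 hold none. This contrast depends on which promoters were printed. Among the others, Mvk holds 5, Hmgcs1 4 and Hsd17b7 3, and none of them was called at the highest naphthalene concentration. Nsdhl with 4 and Fasn with 3 were called there. Whether the box goes with the calls was not tested. Counted by gene over both strands and over all of a gene's listed starts, 19 of 22 members (86.4%) held a CCAAT box, against 41.1% of the 27025 genes in the promoter table. The GC box GGGCGG, read by Sp1, stood in 86.4% of members and 38.2% of all genes. The E-box CANNTG stood in 68.2% and 75.0%. The sterol regulatory element, searched as TCACNCCAC, stood in 1 of 22 members, Hmgcs1, and in 1.44% of all genes. A site that differed from this pattern in any fixed letter was not counted, so the count may be too low. The windows are short, sites of different motifs may overlap, and a match is a string of letters, not a bound site.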

How the data were processed

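Lung RNA from 191 female B6C3F1 mice was measured on Affymetrix whole-genome mouse expression arrays. The values were used as deposited: a table of 45101 probe sets on a log scale, taken as log2 because the authors' deposited table names neither base nor normalization, with array means of -0.00269 to 0.00334 and array SDs of 1.01 to 1.44. Of the probe sets, 34958 carried 1 gene and 10143 none or several, and 34754 were matched to current names. The probe set of highest mean stood for each of 18194 genes, and genes with at least 3 arrays above the median of all values (-0.386) were tested.

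A limma model (R 4.3.3, limma 3.58.1) with 1 mean per group was fitted to all 191 arrays and 13524 genes, and tested on simulated data. Arrays of a group are separate animals per the labels. The number of arrays limits the precision. Trends were slopes on concentration over exposed arrays only. The members and the lists of other genes were chosen with earlier results of these data known. Every called member was named, up to 12 per comparison, with values by array for the 6 members with the most calls and for the member of largest difference elsewhere, and of the other pathway lists up to 4 called genes per comparison. Alternatives covered normalization, filter, probe sets, arrays in the fit, control sets, concentration scale and single arrays. Replicate numbers follow accession order and pair nothing. Some listed pathway and marker genes were not analysed here.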

Additional observations from a re-analysis of the deposited data

Results flagged for a closer look

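Of 88 sets of 4 or 5 arrays in which the called members were examined, 7 held an array that stood apart from the rest of its set by Dixon's criterion, and chance gives about 1 in 20. Air control ACO3 replicate 4 was high for Elovl6 (2.14, others -0.62 to -0.37) and for Fasn (4.45, others 2.91 to 3.16). Iodoform array 2 was high for Fads2 (1.75, others 1.03 to 1.12). Vanadium pentoxide array 3 was high for Cyp51 (1.24, others 0.85 to 0.91), and vanadium pentoxide array 1 was low for Scd2 (5.20, others 5.38 to 5.41). Air control ACO4 replicate 2 was low for Scd1 (4.86, others 5.20 to 5.27), and corn oil control CCO3 replicate 2 was high for Stard4 (1.17, others 0.72 to 0.77).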

How the results depend on the processing

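Of the 32 calls, 11 held with each of 82 arrays left out in turn, 10 held under every other alternative, and 7 held under all. Of 26 trend calls, 20 held with each array left out. Quantile normalization within the batch gave 55 calls in all (0 for BBMP, 3 for COUM, 0 for DBET, 6 for NPTH at 20 ppm and 0 for TCPN). The adjusted p against the mean of the control sets alone gave 67 (2 for COUM, 2 for DBET, 6 for NPTH at 20 ppm, 10 for PGBE, 9 for TCPN and 9 for VANP). Fitting only the arrays of a contrast gave 5 for BBMP, 2 for the pair of naphthalene amines and 0 for COUM, DBET, IODO, PGBE and TCPN. The mean of all probe sets gave 3 for COUM, 1 for the amines, 2 for PGBE and 5 for TCPN, and no filter gave 0 for DBET and 5 for TCPN. Single control sets, chosen after seeing the data as were the fits without low-integrity RNA, the trends without single arrays and the marker lists and correlations without the adipose-rich air array, gave 2 for COUM against CCO2 and 2 against CCO3, 2 for DBET against CCO3, 6 and 5 for NPTH at 20 ppm against ACO3 and ACO4, 2, 3 and 2 for PGBE against ACO3, ACO4 and ACO5, 8 for TCPN against CCO5 and 8 for VANP against ACO3. The methylene chloride trend had 4 calls on log10 concentration and 1 with air arrays at 0 ppm, where Idi1 turned to 0.00315 (adjusted p = 0.993). The cause was not tested for any of these. The 30 ppm naphthalene count and the naphthalene trend stayed within 1.5 times under these alternatives. Leaving out single arrays gave 9 to 11 calls for NPTH at 30 ppm, 1 to 4 at 20 ppm, 14 to 19 in the naphthalene trend, 7 to 15 in the methylene chloride trend, 4 to 6 for VANP, 0 to 1 for PGBE, 0 to 6 for TCPN, 0 to 9 for IODO, 0 to 4 for BBMP, 1 to 1 for COUM, 0 to 1 for DBET and 0 to 0 for the amines. No paired analysis was possible because replicate numbers were given in accession order.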
